A study of Mus musculus with 16 samples.

Results

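The miRNAs described here are the products of the miR-23a/27a/24-2 and miR-23b/27b/24-1 clusters that the arrays measured under their older names. They are the guide strands mmu-miR-23a, mmu-miR-27a, mmu-miR-23b, mmu-miR-27b and mmu-miR-24 and the star strands mmu-miR-24-2* and mmu-miR-24-1*, written below without the species prefix. They were chosen by name, and all 7 were found among the 611 mouse miRNAs on the array. The samples were primary mouse embryonic fibroblasts (MEFs), cultured cells prepared from mid-gestation embryos, on an FVB/n:C57Bl/6 F1 background. Cells lacking Ercc1 (Ercc1-/-), a subunit of the ERCC1-XPF nuclease used in nucleotide excision repair and in the repair of interstrand crosslinks, were compared with congenic wild-type (WT) cells. Each genotype was cultured in 20% or 3% O2 and taken at passage 7 (P7) or passage 3 (P3), which gave 8 groups of 2 arrays each: Ercc1-/- P7 at 20% and 3% O2, WT P7 at 20% and 3% O2, Ercc1-/- P3 at 20% and 3% O2, and WT P3 at 20% and 3% O2. Primary MEFs slow down and senesce when passaged in 20% O2, Ercc1-/- cells sooner than WT cells, and 3% O2 delays this, so the design asked which miRNAs go with passage, genotype and oxygen. Ercc1 itself is not read by a miRNA array, so the genotype labels could not be checked on it.

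A miRNA hairpin is cut from a longer transcript and gives a short duplex, of which 1 strand, the guide, is mostly kept and the other, the star strand, is mostly lost. The miR-23, miR-27 and miR-24 hairpins lie next to each other in 2 copies of the cluster, and each cluster is transcribed as 1 precursor. In other cell systems miR-27 is known for restraining adipogenesis through PPARG, miR-23 for repressing glutaminase in human cells, and miR-24 for lowering the histone H2AX, which marks DNA breaks, in human blood cells.

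On GRCm38.p6, the RefSeq hairpins of the first cluster lie on the plus strand at chr8:84208518-84208592 (Mir23a), chr8:84208672-84208758 (Mir27a) and chr8:84208815-84208921 (Mir24-2), 404 bases from the first to the last. Those of the second lie on the plus strand at chr13:63300484-63300557 (Mir23b), chr13:63300712-63300784 (Mir27b) and chr13:63301208-63301275 (Mir24-1), 792 bases in all and inside the bounds of the protein-coding gene Aopep. Mature sequences of 6 of the 7 miRNAs were matched in RefSeq, the exception being miR-23b. They are shown because strands and paralogs are set against each other below, with the seed, bases 2 to 8, in capitals:
miR-23a: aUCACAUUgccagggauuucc
miR-27a: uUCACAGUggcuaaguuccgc
miR-27b: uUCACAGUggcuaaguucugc
miR-24: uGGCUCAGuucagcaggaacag
miR-24-2*: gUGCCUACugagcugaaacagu
miR-24-1*: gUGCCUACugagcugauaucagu
The miR-27a and miR-27b strands share their seed and differ by 1 base, C19U, with the base of miR-27a first and positions counted from the 5′ end. The star strands of the 2 miR-24 hairpins also share a seed and are identical over their first 16 bases. How far the probes of 1 such miRNA read its near copy was not tested. The miR-24 strand is the same from both hairpins, so its signal is the sum of both clusters, while each star strand comes from 1 hairpin only. The hairpins are shown with both mature strands in capitals, the star strand first:
Mir24-2: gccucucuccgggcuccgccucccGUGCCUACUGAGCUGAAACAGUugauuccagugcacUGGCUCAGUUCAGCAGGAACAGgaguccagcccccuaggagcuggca
Mir24-1: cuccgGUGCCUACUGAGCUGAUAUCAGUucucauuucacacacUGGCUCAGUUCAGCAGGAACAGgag

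Each miRNA was read by 2 probes on 20 spots per array, and no spot was saturated. Values below are scaled signals on the log2 scale, where a difference of 1 is a 2-fold change, and a miRNA was called above background on an array when at least 1 of its probes was. Slide 1 carried the first replicate of each of the 8 groups and slide 2 the second, and each slide had a scan of its own. Per the study's methods the replicates were independent cell lines, so slide, scan and cell line cannot be told apart, and changes are given by slide too. The slides differed in brightness before scaling. The mean log2 signal of the 57 miRNAs above background on all 16 arrays was 5.80 to 7.99 on the P7 arrays and 6.98 to 8.65 on the P3 arrays of slide 2, and 7.91 to 9.29 on the P7 arrays and 9.31 to 9.77 on the P3 arrays of slide 1. All 15 mesenchymal marker miRNAs were above background on some array, 9 of them on all 16, with a summed log2 level of 13.91 to 14.77 in P7 and 14.39 to 14.74 in P3 cells. None of the 7 epithelial, 2 endothelial or 1 liver markers was above background on any array. Of the 7 blood markers 4 were above background somewhere, with miR-150, miR-144 and miR-451 on no array and a summed log2 level of 4.39 to 6.69 in P7 and 4.58 to 6.30 in P3 cells. Of the 6 neural markers 4 were above background somewhere, with miR-9 and miR-124 on no array and summed log2 levels of 4.08 to 6.68 in P7 and 5.01 to 5.86 in P3 cells. Of the 4 muscle markers only miR-206 was, with 3.50 to 4.96 in P7 and 3.50 to 3.66 in P3 cells. In these sums a scaled signal below 2.82 was counted as 2.82. The lower ends of the blood, neural and muscle sums are therefore at or near no signal. The part of brightness and of other cells in the results below was not tested.

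**Figure D1:**
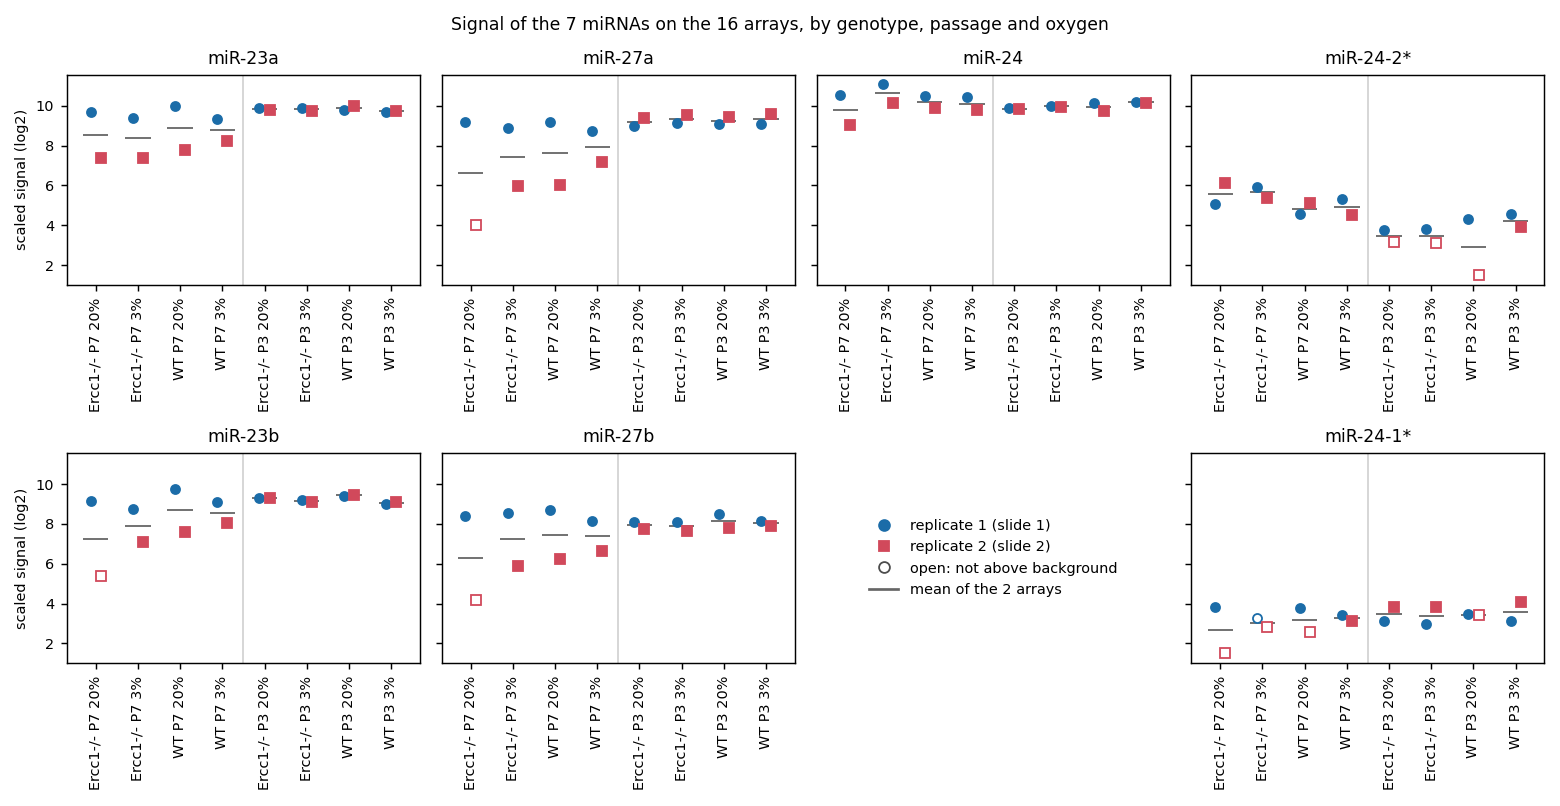
Scaled log2 signal of each of the 7 miRNAs (vertical axis) on all 16 arrays, by genotype, passage and oxygen (horizontal axis). Circles are slide 1, squares slide 2, open symbols are not above background and grey lines are the mean of the 2 arrays of a group. In P7 cells the squares of miR-23a, miR-27a, miR-23b and miR-27b lie below the circles, and miR-24-2* is higher in P7 than in P3 cells.

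Over both genotypes and both oxygen levels, 1 product of these clusters changed with passage under the main processing, though not in every other setting. The star strand miR-24-2* rose in P7 over P3 cells, by 1.73 on the log2 scale with 3 of the 8 P3 arrays not above background, so that its size is not exact. The guide strands miR-23a, miR-23b, miR-27a and miR-27b had lower means in P7 cells that did not pass the test, and miR-24 differed by 0.19. Across the 235 miRNAs tested with limma, 54.9% were called between P7 and P3 cells at a Benjamini-Hochberg adjusted p under 0.05, 22.6% higher and 32.3% lower in P7. The share of calls that were higher in P7 was 41.1%, against 13.6% without scaling and 51.6% with the 75th percentile as the scale. Of the 7 miRNAs of the clusters 1 was called, which is fewer than that share. Their median change was −0.91, against −0.39 over all miRNAs tested, on a log2 scale where the zero depends on the scaling. With the slide as a block, 4 of the 7 were called against 68.1% of all, and without the Ercc1-/- P7 20% O2 array of slide 1, 6 of the 7 against 82.1% of all.

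The star strand miR-24-2*, released from the chromosome 8 cluster, was above background on all 8 P7 arrays and on 5 of 8 P3 arrays. Its log2 signal on slides 1 and 2 was 5.06 and 6.12 in Ercc1-/- P7 cells at 20% O2, and 5.94 and 5.38 at 3% O2. In WT P7 cells it was 4.55 and 5.10 at 20% O2, and 5.32 and 4.50 at 3% O2. The P3 values were lower, at 3.74 and 3.18 in Ercc1-/- cells at 20% O2, 3.82 and 3.11 at 3% O2, 4.31 and 1.50 in WT cells at 20% O2, and 4.55 and 3.92 at 3% O2, where 1.50 is the floor given to values below it. P7 exceeded P3 in all 8 pairs of the same genotype, oxygen and slide, as it did for 11.1% of the miRNAs tested. On slide 2 the 4 P7 arrays lay above the 4 P3 arrays (27.2% of all tested), and on slide 1 the ranges met at 4.55. The change was 1.73 ± 0.42 (SE, n = 8 arrays each, limma adjusted p = 0.00846, and 0.00435 with the slide as a block). Fitted for each slide, it was 1.11 on slide 1 (limma adjusted p = 0.127) and 2.35 on slide 2 (limma adjusted p = 0.00039). Of the P3 arrays of slide 2 only that of WT cells at 3% O2 was above background. Over both slides miR-24-2* was called with either probe alone, at 1.92 (limma adjusted p = 0.00677) and 1.45 (limma adjusted p = 0.00869). The study picked out this miRNA on these same arrays, in Ercc1-/- P7 over P3 cells at 20% O2, so its rise is not independent evidence. Without scaling the change was 0.61 (limma adjusted p = 0.484), since the unscaled signal was 11.8 to 17.4 in P7 and 0.461 to 18.5 in P3 cells on slide 2, and 44.7 to 59.8 in P7 and 35.2 to 45.1 in P3 cells on slide 1. With all mouse miRNAs as the scale it was 1.18 (limma adjusted p = 0.0785) and with normexp background correction 0.72 (limma adjusted p = 0.0788). With the software's total signal it was −0.20 (limma adjusted p = 0.883), a column that for all 6125 undetected values held its own error estimate.

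Within single groups the difference of miR-24-2* between P7 and P3 cells did not pass adjustment. It was 2.13 in Ercc1-/- cells at 20% O2 (limma adjusted p = 0.104), 2.20 in Ercc1-/- cells at 3% O2 (limma adjusted p = 0.107), 1.92 in WT cells at 20% O2 (limma adjusted p = 0.542) and 0.67 in WT cells at 3% O2 (limma adjusted p = 0.703). In these comparisons 1.28%, 0%, 1.28% and 0% of all miRNAs were called, and none of the 7. The unadjusted p was 0.0252, 0.0219, 0.0400 and 0.434 in the same order. Except for WT cells at 3% O2, the P3 cells were above background on 1 of 2 arrays, so the sizes of those changes are not exact. For WT cells at 20% O2 the change was 0.24 on slide 1 and 3.61 on slide 2, where the P3 value was the floor. The difference of the passage change between Ercc1-/- and WT cells was 0.87 (limma adjusted p = 0.769), so a difference between the genotypes was not shown.

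The guide strands miR-23a and miR-27a come from the same precursor as miR-24-2*. On slide 2 both were lower in P7 than in P3 cells at each genotype and oxygen level, and on slide 1 the P7 and P3 arrays overlapped. The log2 signal of miR-27a on slide 2 was 4.03 and 5.99 in Ercc1-/- P7 cells at 20% and 3% O2 and 6.02 and 7.18 in WT P7 cells, against 9.40 and 9.52 in Ercc1-/- P3 cells and 9.45 and 9.61 in WT P3 cells. On slide 1 it was 9.20 and 8.89 in Ercc1-/- P7 cells and 9.20 and 8.72 in WT P7 cells, against 8.99 and 9.15 in Ercc1-/- P3 cells and 9.06 and 9.10 in WT P3 cells. It was above background on 15 arrays, the exception being Ercc1-/- P7 at 20% O2 on slide 2. Over both slides the change was −1.88 ± 0.75 (SE, n = 8 arrays each, limma adjusted p = 0.0514, and 0.0251 with the slide as a block), and −1.24 without that array (limma adjusted p = 0.0954). In a fit with a passage change for each slide, miR-27a changed by −3.69 on slide 2 (limma adjusted p = 2.01e-05), a size that includes the array not above background, and by −0.07 on slide 1 (limma adjusted p = 0.965). Each slide held 1 replicate of each group, so p-values of this fit, here and elsewhere, do not measure the spread between replicates. Deviations of replicates correlated among groups of the same passage (median r 0.81 in P7 and 0.61 in P3).

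The same holds for miR-23a in smaller measure. Its log2 signal on slide 2 was 7.40 and 7.36 in Ercc1-/- P7 cells at 20% and 3% O2 and 7.77 and 8.25 in WT P7 cells, against 9.79 and 9.76 in Ercc1-/- P3 cells and 9.96 and 9.75 in WT P3 cells. On slide 1 it was 9.69 and 9.41 in Ercc1-/- P7 cells and 10.00 and 9.36 in WT P7 cells, against 9.87 and 9.90 in Ercc1-/- P3 cells and 9.81 and 9.69 in WT P3 cells. It was above background on all 16 arrays, so no floor enters its values. P3 arrays differed little among themselves, with a mean of 8.65 ± 1.08 in P7 and 9.82 ± 0.09 in P3 cells (SD, n = 8 each). The passage change was −1.16 ± 0.47 over both slides (SE, limma adjusted p = 0.0514, and 0.0173 with the slide as a block), −2.12 on slide 2 (limma adjusted p = 4.22e-05) and −0.21 on slide 1 (limma adjusted p = 0.677). Probe 2 alone gave −1.31 (limma adjusted p = 0.0414) and probe 1 alone −0.81 (limma adjusted p = 0.104).

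The paralogs from chromosome 13, miR-23b and miR-27b, had the same split by slide. On slide 2 miR-23b was 5.39 and 7.07 in Ercc1-/- P7 cells at 20% and 3% O2 and 7.61 and 8.03 in WT P7 cells, and 9.10 to 9.45 on the 4 P3 arrays. On slide 1 it was 8.75 to 9.77 in P7 and 8.99 to 9.41 in P3 cells. Its change was −2.21 on slide 2 (limma adjusted p = 0.000249) and −0.02 on slide 1 (limma adjusted p = 0.996), and −1.12 ± 0.54 over both (SE, limma adjusted p = 0.0934, and 0.0429 with the slide as a block). For miR-27b the log2 signal on slide 2 was 4.17 and 5.87 in Ercc1-/- P7 cells and 6.22 and 6.66 in WT P7 cells, and 7.65 to 7.89 on the 4 P3 arrays. On slide 1 it was 8.16 to 8.68 in P7 and 8.11 to 8.51 in P3 cells. Its change was −2.04 on slide 2 (limma adjusted p = 0.00042) and 0.23 on slide 1 (limma adjusted p = 0.750), and −0.91 ± 0.65 over both (SE, limma adjusted p = 0.241, and 0.0958 with the slide as a block). Both were below background only on the Ercc1-/- P7 20% O2 array of slide 2, without which their changes were −0.65 and −0.38.

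The shared guide strand miR-24 was not called by passage on either slide. Its log2 signal was 9.05 to 11.09 with a median of 10.29 in P7 cells, and 9.76 to 10.19 with a median of 9.96 in P3 cells, and it was above background on all arrays. On slide 1 the 4 P7 arrays (10.42 to 11.09) lay above the 4 P3 arrays (9.88 to 10.19), as for 6.38% of all miRNAs tested, and on slide 2 the P7 arrays (9.05 to 10.16) and P3 arrays (9.76 to 10.16) overlapped. Its change was 0.58 on slide 1 (limma adjusted p = 0.193), −0.19 on slide 2 (limma adjusted p = 0.527) and 0.19 ± 0.30 over both (SE, limma adjusted p = 0.573). The sign of the last turned with the scale: it was −0.22 when arrays were scaled to the mean of all mouse miRNAs and −0.73 without scaling, neither called. The zero of all these changes moves with the scaling, the median over all miRNAs being −0.76 and −1.14 under those 2 settings.

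The star strand of the chromosome 13 hairpin, miR-24-1*, was near background. It was above background on 4 of 8 P7 and 7 of 8 P3 arrays, and on neither array of Ercc1-/- P7 cells at 3% O2, where its values are bounds. Its log2 signal was 1.50 to 3.85 in P7 cells and 3.00 to 4.07 in P3 cells. On slide 2 the 4 P7 arrays (1.50 to 3.13) lay below the 4 P3 arrays (3.41 to 4.07), as for 43.4% of all miRNAs tested. Of those P7 arrays only that of WT cells at 3% O2 was above background, and the WT P3 20% O2 array was not. The slide 2 values are therefore mostly not above background in P7, and the size of that change is not exact. On slide 1 the P7 (3.26 to 3.85) and P3 arrays (3.00 to 3.48) overlapped. The change was −1.28 on slide 2 (limma adjusted p = 0.00684), 0.38 on slide 1 (limma adjusted p = 0.499) and −0.45 ± 0.38 over both (SE, limma adjusted p = 0.322).

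Fitted by slide, 6 of the 7 miRNAs were called on slide 2, 1 higher and 5 lower in P7, where 81.7% of all miRNAs tested were called. None was called on slide 1, against 11.1% of all. The passage change differed between the slides for 5 of the 7 (miR-23a, miR-27a, miR-23b, miR-27b and miR-24-1*), against 50.6% of all tested. The difference was not shown for miR-24 (limma adjusted p = 0.117) or miR-24-2* (limma adjusted p = 0.115). Slide 2 had fewer miRNAs above background, 117 to 178 on its P7 and 132 to 204 on its P3 arrays, against 155 to 245 on the P7 and 240 to 257 on the P3 arrays of slide 1. Before scaling, the mean log2 signal on slide 2 averaged 6.98 over the P7 arrays and 8.12 over the P3 arrays. The WT P3 20% O2 array of that slide, with a mean of 6.98 and 132 miRNAs above background, was dimmer than 3 of the 4 P7 arrays. It had miR-27a at 9.45 and miR-24-2* at the floor. The part of brightness in the passage changes was not tested. On slide 2 each P7 array had less miR-23a, miR-27a, miR-23b and miR-27b than each P3 array, as 43.4% of all miRNAs tested did.

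**Figure D2:**
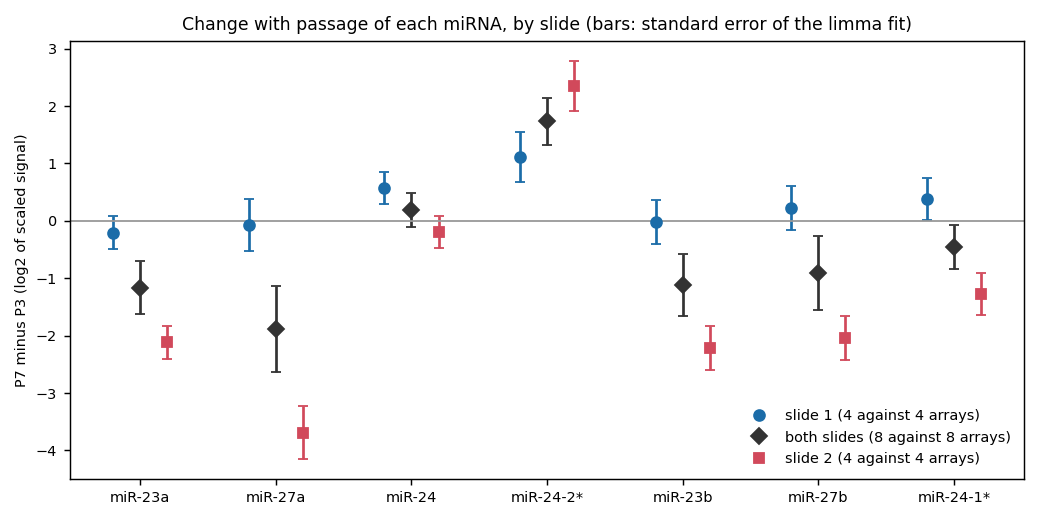
Passage change of each miRNA (P7 minus P3, log2 of scaled signal, vertical axis) on slide 1, on both slides and on slide 2, with bars for the standard error of the limma fit. On slide 1 the values lie between −0.21 and 1.11 and on slide 2 between −3.69 and 2.35, and miR-24-2* is the highest on both.

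**Figure D3:**
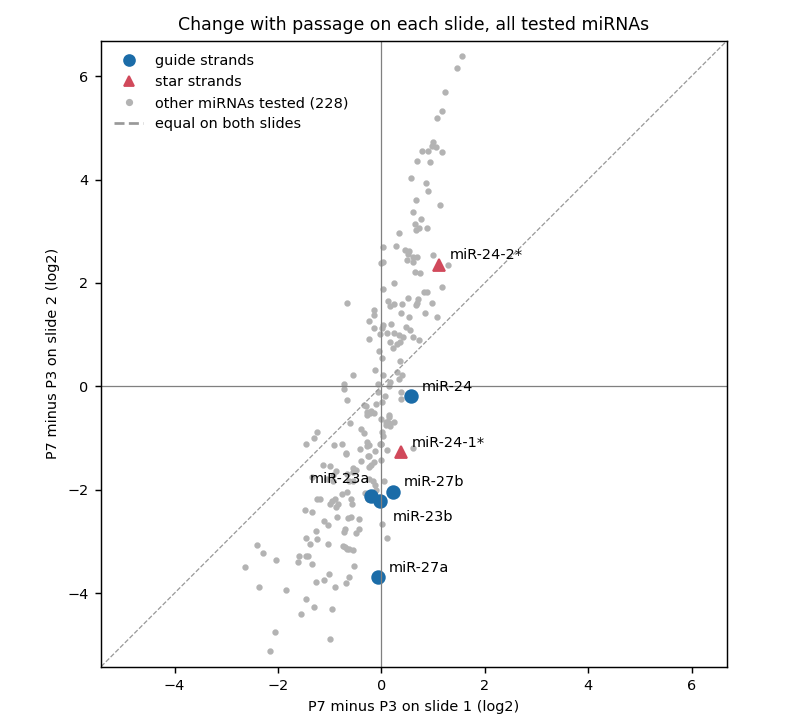
Passage change (P7 minus P3) on slide 1 (horizontal axis, log2) against that on slide 2 (vertical axis, log2) for the 235 miRNAs tested, with the 7 miRNAs of the clusters marked by strand. Points spread further along the slide 2 axis, and miR-27a lies at −0.07 on slide 1 and −3.69 on slide 2.

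The difference of the log2 signals of 2 miRNAs on 1 array does not depend on the scaling between arrays where both lie above the floor, so strands and paralogs were also set against each other within each array. The floor, set after scaling, replaced 1 value of miR-24-2* and 1 of miR-24-1*, and the differences with those star strands depend on the scale on these 2 arrays. Only its change between groups is read, since probes of different miRNAs differ in brightness. Between P7 and P3 cells 5 of the 6 differences passed a test over arrays that ignores the slide and the pairs, and miR-23a minus miR-23b did not. These are not separate results. The difference of the star strands follows from their differences with miR-24, and the cluster difference is the mean of the miR-23 and miR-27 differences. Of single miRNAs 54.9% were called by passage, and how many differences of other miRNAs would pass was not tested. A sign-flip test over the 8 pairs of the same genotype, oxygen and slide passed none of the 6, with adjusted p-values from 0.0703 to 1.0 (exact). In all 18 two-sided exact permutation tests over arrays were run, 6 differences by 3 factors, with Benjamini-Hochberg adjustment over the 18.

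The paralogs miR-27a and miR-27b, which differ by a single base, gave a change in the same direction in every pair. The log2 difference miR-27a minus miR-27b averaged 0.31 ± 0.36 in P7 and 1.29 ± 0.49 in P3 cells (SD, n = 8 each), a change of −0.97 (exact permutation p = 0.000466, adjusted 0.0042). In Ercc1-/- P7 cells it was 0.81 and −0.14 at 20% O2 and 0.32 and 0.12 at 3% O2 on slides 1 and 2, and in WT P7 cells 0.51 and −0.21 at 20% O2 and 0.56 and 0.52 at 3% O2. In P3 cells it was 0.88 and 1.65 at 20% O2 and 1.04 and 1.87 at 3% O2 with Ercc1-/-, and 0.55 and 1.65 at 20% O2 and 0.94 and 1.71 at 3% O2 with WT. It was lower in P7 than in P3 in all 8 pairs of the same genotype, oxygen and slide, by −1.65 on average on slide 2, where the passages did not overlap, and by −0.30 on slide 1, where they did. Among single miRNAs 17.9% were lower in P7 in all 8 pairs. On slide 2 the passages did not overlap for 43.4% that were lower and 27.2% that were higher in P7. The shares among differences of other miRNAs were not counted. With only the 15 arrays on which both miR-27a and miR-27b were above background, the change of their difference was −0.91 (exact permutation, adjusted p = 0.0112). Leaving out each array in turn gave −1.08 to −0.89. A sign-flip test over the 8 pairs gave an adjusted p of 0.0703 (exact, 256 flips), from the smallest p this test allows, 0.00781.

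Against miR-24, the star strand of the chromosome 8 hairpin was higher in P7 cells under the main processing, and for that of the chromosome 13 hairpin, often not above background, the values did not hold across settings. The log2 difference miR-24 minus miR-24-2* averaged 4.93 ± 0.89 in P7 and 6.47 ± 0.82 in P3 cells (SD, n = 8 each), a change of −1.54 (exact permutation p = 0.000466, adjusted 0.0042), and was lower in P7 in 7 of 8 pairs. The change was −0.53 on slide 1 and −2.55 on slide 2. On the 13 arrays with both above background it was −1.07 (exact permutation, adjusted p = 0.0462), with normexp −0.67 (adjusted p = 0.568, exact permutation) and with total signal 0.32 (adjusted p = 0.995, exact permutation). The log2 difference miR-24 minus miR-24-1* averaged 7.14 ± 0.44 in P7 and 6.50 ± 0.42 in P3 cells (SD, n = 8 each), a change of 0.64 (exact permutation p = 0.0131, adjusted 0.0470). It was 0.19 on slide 1 and 1.09 on slide 2 and higher in 6 of 8 pairs, and on the 11 arrays with both above background it was 0.25 (exact permutation, adjusted p = 0.752), while normexp turned it to −0.29 (adjusted p = 0.793, exact permutation). Set directly against each other, miR-24-2* minus miR-24-1* averaged 2.21 ± 1.20 in P7 and 0.03 ± 1.09 in P3 cells (SD, n = 8 each), a change of 2.18 (exact permutation p = 0.00171, adjusted 0.0103). It was 0.73 on slide 1 and 3.63 on slide 2, and 0.61 over the 9 arrays with both above background (exact permutation, adjusted p = 0.429).

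For the first pair of the clusters, miR-23a minus miR-23b changed by −0.04 between P7 and P3 cells (exact permutation, adjusted p = 0.945). It was lower in P7 in 7 of 8 pairs, and without the Ercc1-/- P7 20% O2 array of slide 2, where miR-23b was below background, the change was −0.25 (exact permutation, adjusted p = 0.0369 in that setting). The mean of miR-23a and miR-27a minus that of miR-23b and miR-27b, which sets the chromosome 8 cluster against that on chromosome 13, was 0.43 ± 0.29 in P7 and 0.94 ± 0.26 in P3 cells (SD, n = 8 each), a change of −0.51 (exact permutation p = 0.00389, adjusted 0.0175). It was −0.24 on slide 1 and −0.78 on slide 2, and lower in P7 in all 8 pairs. This change is the average of −0.04 for miR-23a minus miR-23b and −0.97 for miR-27a minus miR-27b. It therefore comes mostly from the miR-27 pair, and a shift of the clusters as a whole was not shown. None of the 12 tests on genotype and oxygen passed, the smallest being miR-23a minus miR-23b in Ercc1-/- over WT cells with a change of 0.35 (exact permutation p = 0.0466, adjusted 0.140).

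**Figure D4:**
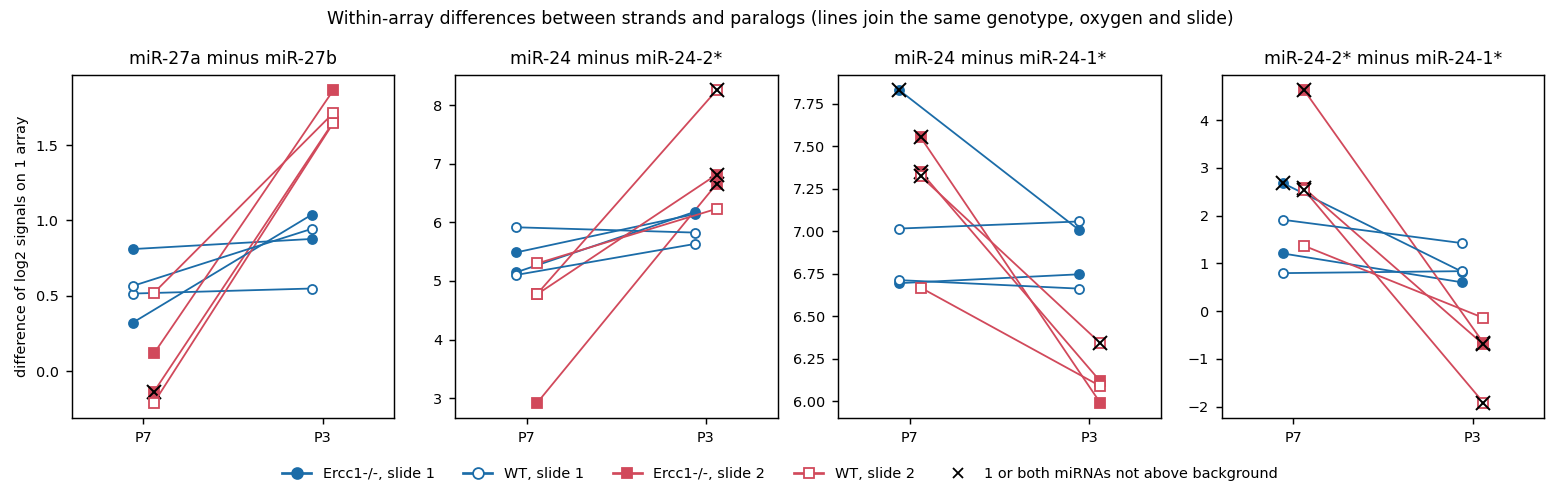
Difference of the log2 signals of 2 miRNAs on the same array (vertical axes) in P7 and P3 cells, for miR-27a minus miR-27b and for the 3 differences among miR-24, miR-24-2* and miR-24-1*. Lines join arrays of the same genotype, oxygen and slide, and crosses mark arrays on which 1 or both miRNAs were not above background. Every line of miR-27a minus miR-27b is lower in P7.

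Other guide and star pairs were measured on the same arrays. Of 21 such pairs tested outside these clusters, the guide minus star difference was lower in P7 in 9, and in 5 its change lay below that of miR-24 and miR-24-2*. The median change over the 21 was 0.93, against −1.54 for miR-24 minus miR-24-2*. The pairs with the lowest values were miR-21 and miR-21* at −2.83 and miR-28 and miR-28* at −2.79, and those with the highest miR-299 and miR-299* at 3.05 and miR-31 and miR-31* at 3.00. Of the 28 star strands tested outside the clusters, 6 were called higher and 12 lower in P7, with a median change of −0.87. By size of its change miR-24-2* was rank 27 of 235 from the top, and miR-27a rank 37 from the bottom.

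None of the 7 miRNAs was called by genotype. The differences of Ercc1-/- minus WT cells averaged over passage and oxygen ran from −0.53 ± 0.54 for miR-23b to 0.32 ± 0.42 for miR-24-2* (SE, smallest limma adjusted p = 0.933), where 1.7% of all miRNAs were called. None of the 7 reached an unadjusted p under 0.05 there. By slide the differences ran from −0.23 (miR-23b) to 0.08 (miR-24) on slide 1 and from −0.83 (miR-23b) to 0.69 (miR-24-2*) on slide 2. In the single comparison of Ercc1-/- with WT cells at P7 and 20% O2 they ran from −1.43 for miR-23b to 0.76 for miR-24-2* (smallest limma adjusted p = 0.780), where 0.426% of all were called. At P3 the changes by genotype ran from −0.23 to 0.55 at 20% O2 and from −0.77 to 0.11 at 3% O2.

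None was called by oxygen either. The differences of 20% minus 3% O2 averaged over genotype and passage ran from −0.37 ± 0.42 for miR-24-2* to 0.10 ± 0.47 for miR-23a (SE, smallest limma adjusted p = 1.00), where 0.851% of all were called, and none reached an unadjusted p under 0.05. By slide they ran from −0.49 (miR-24-2*) to 0.40 (miR-23b) on slide 1 and from −0.85 (miR-27a) to −0.05 (miR-23a) on slide 2. Between the extremes of the design, Ercc1-/- P7 cells at 20% O2 and WT P3 cells at 3% O2, miR-27a changed by −2.74 (limma adjusted p = 0.214) and miR-24-2* by 1.35 (limma adjusted p = 0.239), where 2.55% of all were called and none of the 7. The passage change did not differ between genotypes or oxygen levels for any of the 7 (smallest limma adjusted p = 0.769 and 0.996), nor did it for any miRNA tested (0%). These p-values measure the spread between arrays of the same group, which spans both slides, and a p above the threshold does not show that groups are alike.

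Ordered by group mean, the 4 P3 groups came first for miR-23a, miR-23b, miR-27a, miR-27b and miR-24-1*, and the 4 P7 groups came first for miR-24-2*. The order of miR-24-2* was Ercc1-/- P7 at 3% O2 (5.66 ± 0.39, SD, n = 2), Ercc1-/- P7 at 20% O2 (5.59 ± 0.75), WT P7 at 3% O2 (4.91 ± 0.58), WT P7 at 20% O2 (4.83 ± 0.39), WT P3 at 3% O2 (4.24 ± 0.45), Ercc1-/- P3 at 3% O2 (3.46 ± 0.51), Ercc1-/- P3 at 20% O2 (3.46 ± 0.40) and WT P3 at 20% O2 (2.91 ± 1.99). The lowest group was Ercc1-/- P7 at 20% O2 for miR-23b (7.27 ± 2.65), miR-27a (6.62 ± 3.66), miR-27b (6.28 ± 2.99), miR-24-1* (2.67 ± 1.66) and miR-24 (9.80 ± 1.06), and Ercc1-/- P7 at 3% O2 for miR-23a (8.38 ± 1.45). In 44 of the 49 pairs of neighbours in these orders the arrays of the groups overlapped, so most steps are within the spread of 2 arrays. The highest group was WT P3 at 20% O2 for miR-23a (9.89 ± 0.11), miR-23b (9.43 ± 0.03) and miR-27b (8.16 ± 0.50), and WT P3 at 3% O2 for miR-27a (9.36 ± 0.36) and miR-24-1* (3.60 ± 0.66). For miR-24 it was Ercc1-/- P7 at 3% O2 (10.62 ± 0.66).

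As a description over the 8 group means, the miRNAs whose pattern was most like that of miR-23a were miR-16 (Pearson r = 0.995), miR-28 (r = 0.994) and miR-30b (r = 0.994). Those most like miR-24 were miR-130b (r = 0.902), miR-19b (r = 0.800) and miR-136 (r = 0.777). Over the 16 arrays the 4 guide strands miR-23a, miR-23b, miR-27a and miR-27b followed each other closely, with r from 0.904 (miR-23a and miR-27b) to 0.966 (miR-23b and miR-27a). The star strand miR-24-2* ran against miR-27a (r = −0.59) although both are cut from 1 precursor, and miR-24-1* ran with miR-27a (r = 0.88). These correlations share the slide, the brightness of each array and the floor, and carry no test.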

How the data were processed

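RNA of each sample was labelled with Cy3 and hybridised to 1-colour Agilent mouse miRNA arrays (V2). The authors scanned the arrays, and the deposited files hold the Agilent Feature Extraction (10.7.1.1 in the file headers) background-subtracted intensity of each spot, not scaled between arrays. The authors' series table of intensity values was an alternative only, as its scale and any centring are not given in the sources used here. Per the study's methods, log2 values were normalized to the mean of the array and tested with Welch's test and a 2-fold limit.

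Control and outlier spots were left out, and spots were averaged per probe and miRNA. A probe was above background where at least 0.5 of its spots were. Signals were then scaled so that the 57 miRNAs detected on all 16 arrays, miR-23a and miR-24 among them, had the same mean log2 on each, floored at 2.82 and log2-transformed. Of 611 mouse miRNAs, 308 were above background on some array (117 to 257 per array) and 235 were tested with limma 3.58.1 in R 4.3.3 (8 group means, 8 residual degrees of freedom), and p-values were adjusted (Benjamini-Hochberg) separately in 19 comparisons. The number of arrays limits the precision, with 2 per group. Alternatives were other scalings, normexp with an offset of 50 (on the median spot signals), total gene signal, other filters and floors, the slide as a block, the methods' test, each probe, and each array left out. The fits by slide were added after seeing the data. The miRNAs, lists and tests were chosen with earlier results of these data known. The named miRNAs were all 7, the 3 most alike to each of those above background on all arrays, and the 2 guide and star pairs with the largest changes in each direction. The limma fit was tested on simulated data. Labels state 2 independent experiments per condition.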

Additional observations from a re-analysis of the deposited data

Results flagged for a closer look

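The passage change of 5 of the 7 miRNAs differed between the slides, each of which held 1 replicate of every group, per the methods a separate cell line. The change on slide 2 minus that on slide 1 was −1.91 for miR-23a (limma adjusted p = 0.00413), −2.19 for miR-23b (limma adjusted p = 0.00851), −3.62 for miR-27a (limma adjusted p = 0.00316), −2.27 for miR-27b (limma adjusted p = 0.00746) and −1.66 for miR-24-1* (limma adjusted p = 0.0217), from 4 P7 and 4 P3 arrays on each slide. Of all 235 miRNAs tested 50.6% differed in this way. Slide, scan and cell line cannot be told apart, and the p-values by slide do not measure the spread between replicates.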

How the results depend on the processing

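Of the miRNAs of the clusters, 1 was called between P7 and P3 cells. The number was 0 with the mean of all mouse miRNAs as the scale, where 39.6% of all tested were called, and without scaling (18.7%). It was also 0 with normexp (14.9%) and with total gene signal (30.6%). With the replicate block it was 4 (68.1% of all called) and with the cell line as a random block 3 (64.3%). The number was higher in 3 of the 16 settings that left out 1 array. The arrays left out were Ercc1-/- P7 20% O2 replicate 1, WT P7 20% O2 replicate 1 and Ercc1-/- P7 3% O2 replicate 1. Without the first of these, the counts of the single passage comparisons, the single genotype comparisons and the comparison of the extremes rose too. The lone array left in such a group was assumed to vary like the others. The methods' test at an unadjusted p gave 1 call in the single passage comparisons, miR-24-2* in Ercc1-/- cells at 3% O2, and 0 after adjustment. Unadjusted, 21 miRNAs in all passed in that comparison. In Ercc1-/- cells at 20% O2, 4 miRNAs in all passed and 0 of the 7, so miR-24-2* did not pass there. The study picked out this miRNA in that same comparison, and its call did not recur. No other setting changed the counts for genotype, oxygen or the differences of passage changes.

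The change of miR-24 reversed to −0.22 with the mean of all miRNAs as scale, −0.73 without scaling and −0.19 on slide 2. That of miR-24-1* reversed to 0.34 with normexp, 0.10 with total gene signal and 0.38 on slide 1, that of miR-27b to 0.23 on slide 1, and that of miR-24-2* to −0.20 with total gene signal. The cause was not tested. Over its alternatives other than total gene signal miR-24-2* kept its sign, and it was called in all 16 settings that left out 1 array (1.38 to 2.08, limma adjusted p 0.00272 to 0.0261).

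With the replicate block, a sign-flip test over pairs, no difference within arrays passed. The values stayed −1.54 for miR-24 minus miR-24-2*, 2.18 for miR-24-2* minus miR-24-1*, −0.97 for miR-27a minus miR-27b and −0.51 for the mean of miR-23a and miR-27a against that of miR-23b and miR-27b (adjusted p = 0.0703 each, exact), and 0.64 for miR-24 minus miR-24-1* (adjusted p = 0.141, exact). On arrays with both above background miR-24 minus miR-24-1* was 0.25, miR-24-2* minus miR-24-1* 0.61 and miR-23a minus miR-23b −0.25, the last now past the threshold. With normexp miR-24 minus miR-24-2* was −0.67, miR-24 minus miR-24-1* reversed to −0.29 and miR-23a minus miR-23b was −0.26, past the threshold. With total gene signal miR-24 minus miR-24-2* reversed to 0.32, miR-24-2* minus miR-24-1* to −0.30 and miR-23a minus miR-23b to 0.047, while miR-24 minus miR-24-1* was 0.026 and the cluster difference −0.45, both not passing. Leaving out single arrays gave −1.68 to −1.25, 0.54 to 0.72, 1.84 to 2.38, −0.25 to 0.012, −1.08 to −0.89 and −0.58 to −0.44 for miR-24 minus miR-24-2*, miR-24 minus miR-24-1*, miR-24-2* minus miR-24-1*, miR-23a minus miR-23b, miR-27a minus miR-27b and the cluster difference, and miR-24 minus miR-24-1* passed in 6 of 16. Only miR-27a minus miR-27b kept its call in every setting but the block.

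Over all miRNAs tested, 129 were called by passage in the main setting, 160 with the block, 44 without scaling, 35 with normexp, 72 with total gene signal, 55 of 611 without the filter and 35 of 57 among those above background on all arrays. Same-numbered replicates share a slide and a scan, and the methods do not say that they share a cell line across groups. The deviations of replicates correlated among groups of the same passage (median r 0.81 in P7 and 0.61 in P3) and not between P7 and P3 (median r 0.03). Low signal limits miR-24-1*, above background on 11 of 16 arrays, and miR-24-2*, on 13.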

Other observations

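The star strands of the miR-27 hairpins, miR-27a* and miR-27b*, were also on the array and were above background on 0 of 16 arrays.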
